A study of Mus musculus with 6 samples.

Results

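Met, Axl, Mertk and Tyro3 encode receptor tyrosine kinases, and Hgf, Gas6 and Pros1 encode the proteins that bind and activate them. These 7 genes were chosen by name from the receptor and ligand families, out of 20687 gene symbols in the table. All 7 were among the 15212 genes that passed the filter on low counts and were tested. HGF is secreted by mesenchymal cells as a precursor that must be cleaved before it activates MET, and MET is carried mainly by epithelial cells, where it drives growth, motility and repair. TYRO3, AXL and MERTK form the TAM family. GAS6 and protein S, the product of Pros1, are vitamin K-dependent proteins that bridge phosphatidylserine on dying cells to these receptors, which serves the clearance of dying cells by macrophages and restrains innate immune responses.

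The study sequenced RNA from whole mouse lung carrying KP tumours and from the KP cell line that had been injected, in 3 samples each, to compare chemokine expression. The lung group held C57BL/6 lungs taken 28 days after 100000 KP cells were given into the tail vein, and each sample pooled 3 mice of its own experiment. The cell line group held C57BL/6 KP cells prepared in triplicate, with no further treatment named. The genotype of KP cells is not spelled out in the labels, and no lung free of tumour was analysed here, so normal lung cells and tumour cells of the lung samples cannot be told apart. The triplicates of the cell line are not said to be separate cultures, so p-values measure a spread between samples that may be technical in that group. In such bulk samples, fewer cells of a type and less RNA per cell cannot be told apart either.

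Estimated counts summed to between 17786758 and 22862396 per sample. Lung exceeded the cell line for 4758 of the genes tested and was below it for 2664, and the median log2 fold change was 0.08. Lung replicate 2 stood apart from the other lung samples, with a correlation of log2 values across genes of 0.935 and 0.905 against 0.977 between lung replicates 1 and 3. Cell line replicate 1 stood apart less, at 0.963 and 0.961 against 0.988. Markers of 15 cell types were set against the labels, and all 6 alveolar type 2 markers and all 7 endothelial markers were higher in lung. In the cell line the epithelial keratins Krt8 and Krt18 reached 2626 and 2133 CPM (counts scaled to library size) and Cdh1 449 CPM, while Epcam was at 2.5 CPM.

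All 3 ligands were higher in lung than in the cell line: Hgf by 34.5-fold, Gas6 by 122-fold and Pros1 by 9.27-fold. Of the receptors, Axl and Tyro3 were lower in lung, with cell line levels 3.30 and 2.30 times those in lung. Met and Mertk did not pass the test with all samples. In all, 3 of 7 members rose, against 31.3% of all genes tested, and 2 of 7 fell, against 17.5%. The members' median log2 fold change was 1.08. It was 0.27 for the 6 members left by a filter of 10 or more counts in all 6 samples, which takes out Hgf. That filter also raised the log2 fold changes of the members left, as for Met, from -0.91 to -0.73, and Mertk, from 1.08 to 1.26. The highest and lowest samples of the groups did not overlap for 6 members, 3 higher in lung (35.6% of all genes) and 3 lower (26.5%), and overlapped for Mertk alone. Levels below are CPM on libraries scaled by the trimmed mean of M-values, a scaling that takes most genes as equal between samples. Fold changes are on the log2 scale as lung minus cell line with a standard error (SE), and a gene passed the test at an edgeR adjusted p below 0.05.

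**Figure D1:**
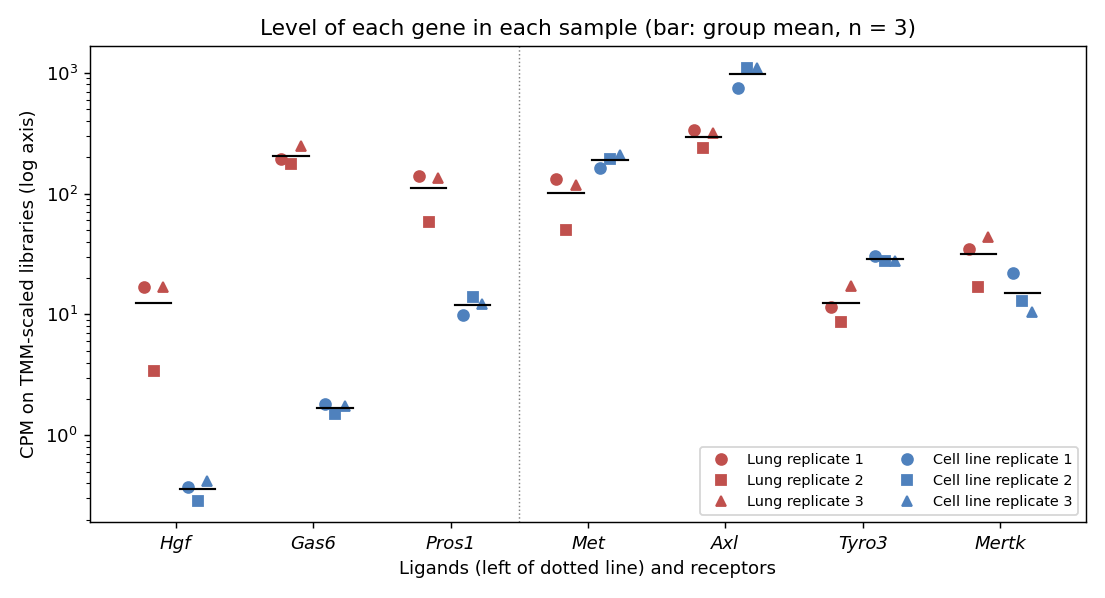
CPM of each member in each of the 6 samples on a log axis, ligands left of the dotted line and receptors right of it, with bars at group means of 3 samples. The ligands lie higher in every lung sample than in any cell line sample, Axl, Tyro3 and Met lie lower, and the groups overlap for Mertk.

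**Figure D2:**
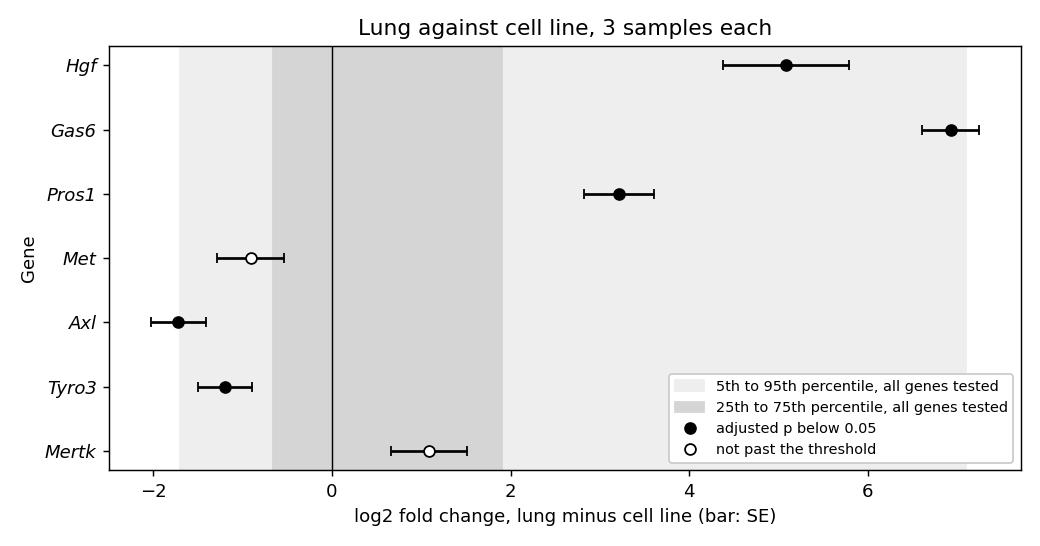
Log2 fold change of lung minus cell line for each member with its SE, filled where the edgeR adjusted p was below 0.05, over bands that hold the middle of all genes tested. Gas6 at 6.93 and Hgf at 5.08 lie to the right of 0, while Axl at -1.72 and Tyro3 at -1.20 lie to the left. The wider band runs from the 5th percentile at -1.70 to the 95th at 7.10. Axl lies just outside it and the other members inside.

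The sequence just upstream of the 3 ligand genes is shown because these genes rose together in lung. Each line gives the 250 bases before a transcription start from RefSeq (GRCm38.p6), read in the direction of the gene. The stretches are chr8:13494536-13494785 on the minus strand for Gas6, chr16:62854057-62854306 on the plus strand for Pros1 and chr5:16553245-16553494 on the plus strand for the first of 2 listed Hgf starts. Capitals mark GGGCGG, the core of a GC box, on either strand.
Gas6: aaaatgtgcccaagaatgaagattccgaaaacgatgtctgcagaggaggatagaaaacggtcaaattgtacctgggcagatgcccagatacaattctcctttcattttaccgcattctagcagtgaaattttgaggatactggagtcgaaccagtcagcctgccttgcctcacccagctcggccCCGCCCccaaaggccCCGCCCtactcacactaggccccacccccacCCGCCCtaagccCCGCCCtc
Pros1: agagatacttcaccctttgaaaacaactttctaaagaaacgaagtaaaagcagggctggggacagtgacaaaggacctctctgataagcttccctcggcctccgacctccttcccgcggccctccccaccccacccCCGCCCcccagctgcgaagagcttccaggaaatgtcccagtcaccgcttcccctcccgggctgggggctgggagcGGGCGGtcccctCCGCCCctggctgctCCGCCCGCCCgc
Hgf: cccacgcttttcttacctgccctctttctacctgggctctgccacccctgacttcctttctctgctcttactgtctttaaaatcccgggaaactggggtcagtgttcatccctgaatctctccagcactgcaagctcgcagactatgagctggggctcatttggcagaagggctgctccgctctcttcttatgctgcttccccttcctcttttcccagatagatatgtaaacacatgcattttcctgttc
With overlapping matches counted, the Gas6 stretch held 4 such motifs and the Pros1 stretch 5, and neither Hgf start had 1 in its stretch (0 matches). The motif was found in 32.7% of 32851 upstream stretches of the same length. It was also found 3 times each before Tyro3, Met and Mertk and 1 time before Axl. TGANTCA, the letters bound by AP-1 factors, was found once, before Met, against 6.75% of all stretches, and TATAAA before no member, against 12.4%. Both strands were searched for each motif. All 7 members had an entry in the promoter table.

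Gas6, the ligand that binds all 3 TAM receptors, lies on chromosome 8 (ENSMUSG00000031451). Its level was 195, 175 and 248 CPM in lung replicates 1, 2 and 3 and 1.82, 1.5 and 1.74 CPM in cell line replicates 1, 2 and 3. Every lung sample was far above every cell line sample, and the cell line values rested on 39, 26 and 33 counts. The group means were 206 ± 38.1 (SD, n = 3) and 1.69 ± 0.168 CPM, a log2 fold change of 6.93 (SE 0.32, edgeR adjusted p = 1.18e-05). The cell line mean was 0.818% of the lung mean, the lowest such share among the members. All Gas6 counts were on 1 transcript.

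Pros1 encodes protein S, a ligand of MERTK and TYRO3 that is also an anticoagulant cofactor of the liver, vessel wall and blood, and lies on chromosome 16 (ENSMUSG00000022912). It reached 141, 57.7 and 135 CPM in the lung samples and 9.94, 13.8 and 12.2 CPM in the cell line samples. Lung replicate 2 was the low one of its group, yet above every cell line sample. The means were 111 ± 46.5 and 12 ± 1.95 CPM (SD, n = 3), with a log2 fold change of 3.21 (SE 0.39, edgeR adjusted p = 3.19e-04). Unlike Gas6, Pros1 kept 10.8% of its lung level in the cell line. Its main coding transcript held at least 97.1% of the counts in each sample.

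Hgf, which encodes the ligand of MET, lies on chromosome 5 (ENSMUSG00000028864). Its level was 17.0, 3.41 and 17.0 CPM in the lung samples and 0.373, 0.288 and 0.421 CPM in the cell line samples. Lung replicates 1 and 3 were alike and replicate 2 far lower, and the groups did not overlap. The cell line values were 8, 5 and 8 counts, set against 425, 77 and 327 in lung. The means were 12.5 ± 7.84 and 0.361 ± 0.0676 CPM (SD, n = 3), with a log2 fold change of 5.08 (SE 0.70, edgeR adjusted p = 5.98e-04). The summed level of 7 fibroblast markers was also lowest in lung replicate 2, at 2560, 860 and 2807 CPM in the lung samples. In the cell line that sum was between 14.6 and 24.2 CPM, and Lum was at 0 counts. Endothelial markers were lowest in lung replicate 2 as well, at 1632, 1169 and 1912 CPM. Smooth muscle and pericyte markers were not, at 474, 500 and 429 CPM. Genes with long transcripts were low in lung replicate 2 in general, as given below. The part of fibroblast number in the Hgf difference was not tested.

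The coding transcript Hgf-204 held 76.2%, 69.6% and 78.6% of Hgf counts in the lung samples. Hgf-203 differs in its coding part by the absence of 15 bases from exon 6 of 19, a difference known as the short deletion in the first kringle domain of HGF. These bases are shown because they are all that separates the coding parts of both forms. They stand in capitals between 24 bases of the Hgf-204 transcript on each side, as GENCODE M21 has them.
Hgf exon 6: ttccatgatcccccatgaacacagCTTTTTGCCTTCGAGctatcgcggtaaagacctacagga
Hgf-203 held 4.12%, 0% and 3.26% of the Hgf counts in the lung samples and was at 0 counts in each cell line sample, where the few Hgf counts could not resolve it.

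Axl, the TAM receptor that binds GAS6 and not protein S, lies on chromosome 7 (ENSMUSG00000002602). It was at 335, 237 and 318 CPM in the lung samples and at 741, 1092 and 1104 CPM in the cell line samples. Cell line replicate 1 was the low one of its group and still more than any lung sample. The means were 297 ± 52.5 and 979 ± 206 CPM (SD, n = 3), with a log2 fold change of -1.72 (SE 0.31, edgeR adjusted p = 0.00210).

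Tyro3, a TAM receptor best known from the nervous system, lies on chromosome 2 (ENSMUSG00000027298). It was low in both groups, at 11.6, 8.58 and 17.1 CPM in the lung samples and 30.7, 27.5 and 27.5 CPM in the cell line samples. The cell line samples were close to each other and above every lung sample. The means were 12.4 ± 4.31 and 28.6 ± 1.81 CPM (SD, n = 3), with a log2 fold change of -1.20 (SE 0.30, edgeR adjusted p = 0.0114). The main coding transcript held at least 99.1% of its counts in each sample.

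Met, the HGF receptor and a known oncogene, lies on chromosome 6 (ENSMUSG00000009376). It was at 133, 49.6 and 118 CPM in the lung samples and 164, 192 and 208 CPM in the cell line samples. The groups did not overlap, and lung replicate 2 was well below the other lung samples. The means were 100.3 ± 44.5 and 188 ± 22.2 CPM (SD, n = 3), with a log2 fold change of -0.91 (SE 0.37) that did not pass the test (edgeR adjusted p = 0.0774). Without lung replicate 2 the log2 fold change was -0.64 and passed (edgeR adjusted p = 0.0239), a smaller difference with less spread. With both lung replicate 2 and cell line replicate 1 left out, a setting added after the data had been seen, it was -0.67 (edgeR adjusted p = 0.00139). Met did not pass when any 1 sample but lung replicate 2 was left out, at an edgeR adjusted p between 0.0675 and 0.162. Met-203 held at least 98.5% of the Met counts in each sample.

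Mertk, the TAM receptor through which macrophages take up dying cells, lies on chromosome 2 (ENSMUSG00000014361). It was at 35.0, 16.8 and 44.0 CPM in the lung samples and 21.9, 12.9 and 10.4 CPM in the cell line samples. The groups overlapped, since lung replicate 2 was below cell line replicate 1. The means were 31.9 ± 13.9 and 15.1 ± 6.05 CPM (SD, n = 3), with a log2 fold change of 1.08 (SE 0.43) that did not pass the test (edgeR adjusted p = 0.0663). The call depended on which samples were kept. Mertk stayed short of the threshold when any 1 sample other than lung replicate 2 and cell line replicate 1 was dropped. In those fits its log2 fold change fell to between 0.78 and 1.01, and the edgeR adjusted p rose to between 0.147 and 0.216. The log2 fold change was 1.34 without lung replicate 2 (edgeR adjusted p = 0.0186), 1.44 without cell line replicate 1 (edgeR adjusted p = 0.0383) and 1.76 with both left out (edgeR adjusted p = 4.08e-04), and it passed in each.

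Mertk counts lay mainly on the transcript Mertk-201 in both groups, with a smaller share on Mertk-202 in the lung samples alone. Mertk-201 held 79.6%, 68.5% and 75.6% of the Mertk counts in the lung samples and 100% in each cell line sample. Mertk-201 encodes the receptor, while Mertk-202 is annotated as a processed transcript without a coding part, lacks exons 1 to 8 of 19 and shares 1696 of the 2982 coding bases of Mertk-201 (56.9%). Mertk-202 held 20.4%, 31.5% and 24.4% of the Mertk counts in the lung samples and 0 counts in every cell line sample. Zero counts allow a share of up to 0.639%, 1.34% and 1.52% in cell line replicates 1, 2 and 3, for counting error only. Its mean lung level of 7.71 ± 2.77 CPM (SD, n = 3) was at least 148-fold higher than 3 counts over the cell line group. The level of Mertk-201 alone was 27.8, 11.5 and 33.3 CPM in lung and 21.9, 12.9 and 10.4 CPM in the cell line, again with overlap. On coding transcripts only, the Mertk log2 fold change was 0.74 (edgeR adjusted p = 0.203). The choice between transcripts was made by the authors' estimation and was not tested here.

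Axl was also split between 2 coding transcripts in different proportions. Axl-202 lacks exon 10 of the 20 exons of Axl-201, an exon of 27 coding bases that leaves the reading frame in place. It also lacks 357 bases at the non-coding end of the last exon, so that its estimate does not rest on exon 10 alone. By their lengths of 3899 and 4265 bases, Axl-202 also holds some bases that Axl-201 lacks, which were not located here. The exon is shown in capitals between 24 bases of the Axl-201 transcript on each side, from GENCODE M21.
Axl exon 10: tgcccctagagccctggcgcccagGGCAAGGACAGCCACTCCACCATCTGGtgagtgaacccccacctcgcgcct
Axl-202 took 1.54%, 1.16% and 0.35% of the Axl counts in the lung samples and 9.37%, 9.54% and 9.46% in the cell line samples. The cell line samples lay within a narrow band above every lung sample. In CPM, Axl-202 was at 3.01 ± 2.03 in lung and 92.7 ± 20.2 in the cell line, and Axl-201 at 290 ± 50.0 and 868 ± 178 (SD, n = 3). Transcript shares are given without a test.

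**Figure D3:**
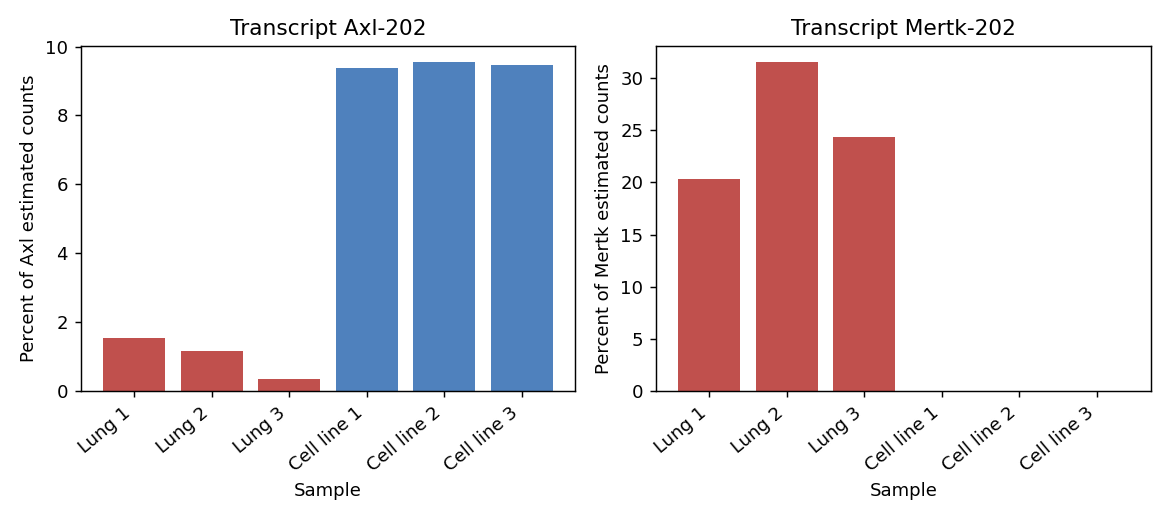
Percent of the estimated counts of Axl on Axl-202 and of Mertk on Mertk-202, 1 bar per sample. Axl-202 is between 9.37% and 9.54% in the cell line and at most 1.54% in lung, and Mertk-202 is at 20.4% or more in lung and 0% in the cell line.

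To compare genes with each other, counts were divided by transcript length and scaled to the same total in every sample. On this scale the lung means ran from Gas6, at 153 ± 53.0, through Axl, at 137 ± 47.6, to Pros1, Met, Mertk, Hgf and Tyro3, at 6.01 ± 2.95 (SD, n = 3). The ranges of all neighbours in that order overlapped over the samples, but Axl was above Pros1, Pros1 above Met, Met above Mertk and Mertk above Hgf within each of the 3 lung samples. Gas6 was above Axl, and Hgf above Tyro3, in 2 of the 3. In the cell line the order was Axl, at 456 ± 104, Met, at 52.5 ± 6.51, Tyro3, Pros1, Mertk, Gas6 and Hgf, at 0.190 ± 0.0404. There the ranges overlapped for Pros1 and Mertk alone. Gas6 thus stood first in the lung order and next to last in that of the cell line.

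Summed on the per-length scale, the TAM ligands reached 251, 126 and 290 in the lung samples and 6.69, 8.48 and 7.83 in the cell line samples. The TAM receptors reached 191, 91.4 and 195 in lung and 360, 538 and 528 in the cell line. Ligand messages therefore outnumbered receptor messages in each lung sample, at 1.31, 1.37 and 1.49 to 1, and were far fewer in each cell line sample, at 0.0186, 0.0158 and 0.0148 to 1. The log2 ratio was 0.47 ± 0.09 in lung and -5.94 ± 0.17 in the cell line, a difference of 6.41 without overlap (exact permutation test, two-sided, p = 0.1, the smallest that 3 against 3 samples allow). The ratio of Hgf to Met was below 1 in every sample, at 0.277, 0.170 and 0.305 in lung and 0.00427, 0.00271 and 0.00396 in the cell line. Its log2 value differed by 6.08 (exact permutation p = 0.1). These ratios use the values tested gene by gene above and are no further evidence of those changes.

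Axl was the main TAM receptor in all 6 samples, whereas the main TAM ligand was Gas6 in lung and Pros1 in the cell line. Axl held 87.2%, 89.4% and 82.9% of TAM receptor messages in the lung samples and 93.6%, 96.7% and 96.9% in the cell line samples, a difference of -9.25 percentage points (exact permutation p = 0.1). Mertk held 9.66%, 7.22% and 12.5% in lung and 2.54%, 0.990% and 0.807% in the cell line, a difference of 8.35 points (exact permutation p = 0.1). Neither share overlapped between the groups. The Tyro3 share overlapped, at 3.70% ± 0.796 and 2.81% ± 0.893 (SD, n = 3, exact permutation p = 0.3). Among the ligands, Gas6 held 62.2%, 78.5% and 70.5% of messages in lung and 19.2%, 12.3% and 15.4% in the cell line, and Pros1 held the rest. The difference was 54.7 points (exact permutation p = 0.1). Over these 6 measures the adjusted p was 0.12 for 5 of them and 0.3 for the Tyro3 share by the exact permutation test, so none could pass at this number of samples.

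**Figure D4:**
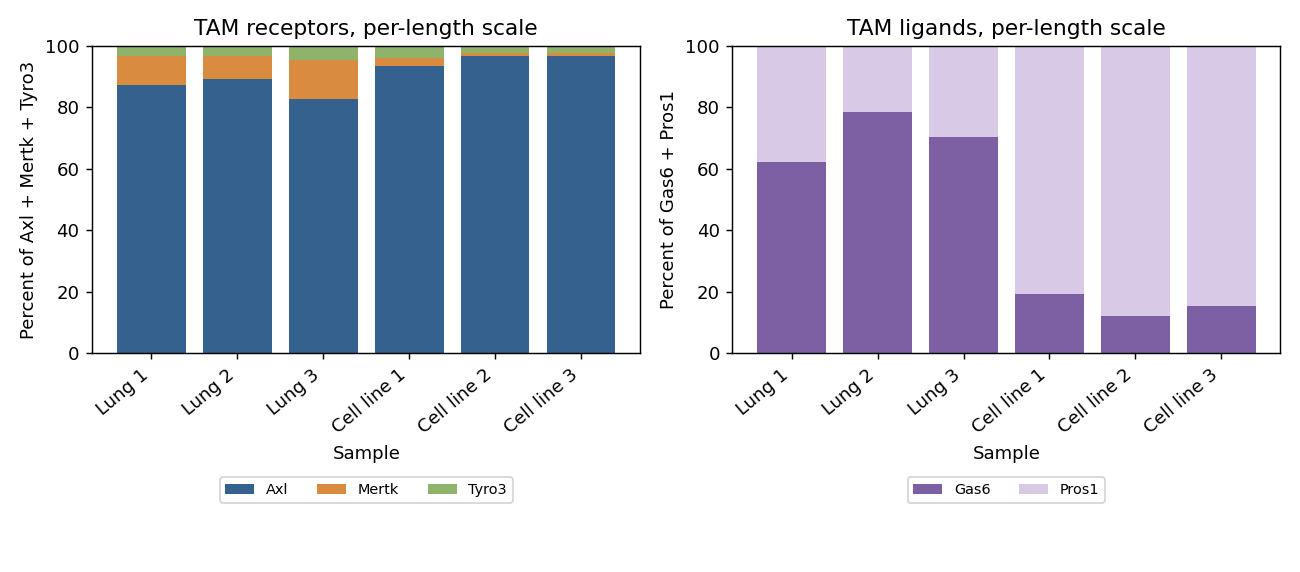
Makeup of TAM receptor messages (left) and TAM ligand messages (right) in percent of their sum on the per-length scale, 1 stacked bar per sample. Axl fills at least 82.9% of every receptor bar, and Gas6 fills 62.2% or more of the ligand bars in lung and at most 19.2% in the cell line.

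Lung replicate 2 had the lowest CPM of the lung samples for all 7 members. Relative to the mean of lung replicates 1 and 3, it was lower by a log2(CPM + 1) difference of -2.03 for Hgf, -1.32 for Met, -1.24 for Pros1 and -1.18 for Mertk. For Tyro3, Axl and Gas6 the difference was -0.66, -0.46 and -0.33. Genes with long transcripts were low in that sample in general. The median difference over all genes tested was 0.67, 0.03, -0.44 and -0.93 from the shortest to the longest quartile of transcript length (3803 genes each). Met and Axl fall in the longest quartile, Gas6 in the second and the other members in the third. In cell line replicate 1 the quartile medians were between 0.00 and 0.04, while Mertk differed from the other cell line samples by 0.86 and Axl by -0.57. The part of transcript length in the members' values was not tested. Without lung replicate 2, the log2 fold change was 6.97 for Gas6, 3.46 for Pros1, 5.47 for Hgf, -1.64 for Axl and -1.05 for Tyro3, and each still passed the edgeR test. Without cell line replicate 1 these values were 6.97, 3.08, 5.09, -1.90 and -1.16, and each passed again.

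**Figure D5:**
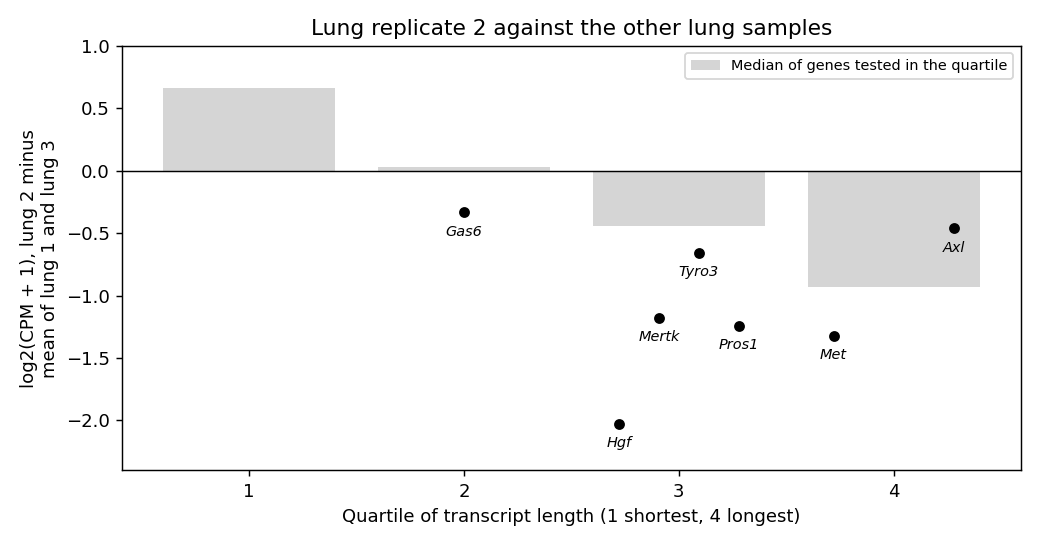
Difference in log2(CPM + 1) between lung replicate 2 and the mean of lung replicates 1 and 3, as bars for the median of all genes tested in each quartile of transcript length and as points for the members. The bars go down from 0.67 to -0.93, and every member lies below 0.

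Markers of other cell types were set beside the members, since the TAM family and its ligands are carried by macrophages, endothelium and fibroblasts. Of 8 macrophage markers, 7 were higher in lung, and their summed level was between 6396 and 8294 CPM there and between 118 and 244 CPM in the cell line. Mrc1, at 122 CPM in the cell line and 97.8 CPM in lung, made up much of the latter sum. Over cell line replicates 1, 2 and 3 that sum was 118, 244 and 223 CPM, an order unlike that of Mertk, which was highest in replicate 1. Of the 8 markers, 6 had the order of Mertk over these samples, among them Csf1r at 19.0, 15.8 and 12 CPM, and Mrc1 and Ms4a7 had the opposite one. That order was not particular to macrophage markers. Sums for T and NK cells (19.9, 15.9 and 9.80 CPM), B and plasma cells (93.5, 86.0 and 50.4 CPM), dendritic cells and neutrophils fell likewise. The sum for alveolar macrophages rose, at 47.1, 64.6 and 67.2 CPM. For the 7 endothelial markers the sums were 1169 to 1912 and 8.90 to 12.7 CPM, with a median cell line level of 0.48% of that in lung. For Gas6 that level was 0.818%, for Hgf 2.90%, for Pros1 10.8% and for Mertk 47.2%. The median was 5.31% for macrophage and 1.42% for fibroblast markers. The part of these cells in the members' levels was not tested.

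Genes around the members were taken from 12 lists with 99 genes, of which 88 were tested. Of these, 38 were higher in lung, 12 were lower and 38 did not pass. Over all genes tested, 31.3% were higher, 17.5% were lower and 48.8% were called in either direction. The counts of each list below are to be set against these shares, and no list was tested as a set. Their levels are given as mean ± SD over n = 3 samples, lung first. Of 8 tested genes for proteases that act on HGF and for the inhibitors of these proteases, 5 were higher and 0 lower in lung (median log2 fold change 3.15). Spint1 and Spint2 encode inhibitors of the HGF-cleaving proteases. Spint1 was at 41.8 ± 6.33 CPM in lung and 1.17 ± 0.458 in the cell line, and Spint2 at 193 ± 61.6 and 87.6 ± 2.91 (SD, n = 3). The Spint2 call was lost without cell line replicate 2 (edgeR adjusted p = 0.0609). St14 and Hpn, proteases that cleave HGF and were picked here after their values were seen, were also higher in lung, at 33.8 ± 11.2 against 0.886 ± 0.512 CPM and 9.68 ± 1.89 against 0.0699 ± 0.0312 CPM. Hgfac, Plau and Plat, which encode other proteases of the list, did not pass, with log2 fold changes of -0.38, -0.12 and 0.28 (edgeR adjusted p = 0.311, 0.857 and 0.590). Tmprss13 was higher in lung, at 2.43 ± 1.4 CPM against 0 counts in every cell line sample. Its lung level was at least 46.9-fold higher than 3 counts over that group. Tmprss13 thus passed the filter on low counts through the lung samples alone, so its call could only be in that direction. With Tmprss13 put at its lower bound, the median of the list stayed at 3.15. With 10 or more counts in all 6 samples, 5 genes of the list were left, of which 2 were higher (median 0.47). Serpina5 of that list was not analysed here.

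Of 8 membrane partners of MET, 2 were higher and 1 was lower in lung, with a median of -0.46. Itga6, an integrin chain that pairs with the MET partner Itgb4, fell from 734 ± 331 CPM in the cell line to 174 ± 80.0 in lung (edgeR adjusted p = 0.0112). The semaphorin receptor Plxnb1 was higher in lung, at 67.4 ± 34.4 against 12.7 ± 2.32 CPM (edgeR adjusted p = 0.00212). Of 12 genes that carry the MET signal inside the cell, 2 were higher and 5 lower (median -0.45). With each sample left out in turn, 1 to 3 were higher and 3 to 5 lower, with 1 higher when any of lung replicates 1 and 3 and cell line replicates 2 and 3 was left out, and 3 lower when either of these cell line replicates was. The adaptor Shc1 fell to 124 ± 16.4 from 271 ± 83.7 CPM, and the transcription factor Stat3 rose to 185 ± 60.2 from 52.7 ± 5.62 CPM. Gab1, the docking protein of MET, was at 41.3 ± 16.3 and 16.6 ± 7.61 CPM with overlapping groups, and its call (edgeR adjusted p = 0.0341) was lost without lung replicate 1 (0.0956), lung replicate 3 (0.0875), cell line replicate 2 (0.124) or cell line replicate 3 (0.124). The adaptor Crk was lower in lung, at 146 ± 35.7 against 278 ± 25.6 CPM. Its call was lost without lung replicate 3 (edgeR adjusted p = 0.0503), cell line replicate 2 (0.0667) or cell line replicate 3 (0.0711). The Crk call was also lost with library size alone as the scaling (edgeR adjusted p = 0.0744) and with 10 or more counts in all 6 samples (0.0560).

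Of 9 genes that restrain MET or release it from the surface, 4 were higher and 1 was lower in lung (median 0.45). Timp3, an inhibitor of the proteases that shed receptors, was at 384 ± 170 CPM in lung and 9.90 ± 0.755 in the cell line (log2 fold change 5.28). Lrig1, which lowers the level of receptor tyrosine kinases, fell to 24.6 ± 8.96 from 79.2 ± 8.24 CPM (log2 fold change -1.69). With each sample left out in turn, 2 to 5 genes of this list were higher, and 2 when cell line replicate 2 or 3 was left out. The phosphatase Ptpn1 was at 111 ± 11.2 and 69.3 ± 8.62 CPM (edgeR adjusted p = 0.0385). Its call was lost when any 1 sample but lung replicate 2 was left out, at an edgeR adjusted p between 0.0649 and 0.150. It was also lost with no filter on low counts (edgeR adjusted p = 0.0920) and with the replicate number as a block (0.111). The related receptor Mst1r, which binds the HGF-like protein encoded by Mst1, did not pass at 11 ± 4.53 and 7.23 ± 1.30 CPM (log2 fold change 0.61, edgeR adjusted p = 0.223). Without lung replicate 2 the Mst1r log2 fold change was 0.85 and passed (edgeR adjusted p = 0.0298), and with lung replicate 2 and cell line replicate 1 both left out it was 0.77 (edgeR adjusted p = 0.00498). Mst1, at 0.954 ± 0.852 CPM in lung and 0.0622 ± 0.108 in the cell line, was left out by the filter on low counts. It was tested and passed with no such filter (edgeR adjusted p = 0.0300) and with either lung replicate 1 or cell line replicate 1 left out (0.0292 each). With either cell line replicate 2 or cell line replicate 3 left out, Mst1 was tested and did not pass.

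Of 15 tested genes for other phosphatidylserine receptors and bridging proteins, 11 were higher and 0 lower in lung (median 3.10). With 10 or more counts in all 6 samples, 8 of 12 were higher (median 2.18). Cd36, a scavenger receptor, was at 731 ± 235 against 5.52 ± 1.36 CPM, and Lrp1, a receptor for many cleared ligands, at 256 ± 108 against 63.2 ± 23.7 CPM. Of 5 genes of the engulfment machinery, 1 was higher, the adaptor Gulp1, at 14.2 ± 4.91 against 6.84 ± 1.73 CPM. That call (edgeR adjusted p = 0.0447) was lost when any 1 sample but lung replicate 2 was left out, at between 0.0913 and 0.160. It was also lost with no filter on low counts (edgeR adjusted p = 0.0626), with the replicate number as a block (0.0553) and in limma-voom (adjusted p = 0.0606). Of 7 genes that expose or hide phosphatidylserine, 1 was higher and 1 lower. Atp11a, a flippase that returns the lipid to the inner leaflet, was at 335 ± 194 and 33.1 ± 6.39 CPM, and Ano6, a scramblase that exposes it, at 123 ± 51.5 and 280 ± 44.0 CPM. The Ano6 call was lost without cell line replicate 2 (edgeR adjusted p = 0.0635) or 3 (0.0769) and with library size alone (0.0709). It was also lost with 10 or more counts in all 6 samples (edgeR adjusted p = 0.0602).

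GAS6 and protein S need vitamin K-dependent carboxylation to bind phosphatidylserine. Of 4 genes of that cycle, 1 was higher and 2 lower in lung. Calu, an inhibitor of the carboxylase, fell to 380 ± 85.4 from 787 ± 38.6 CPM. Vkorc1, which recycles the vitamin, was at 39.7 ± 18.8 and 19.0 ± 4.72 CPM (edgeR adjusted p = 0.0435). Its call was lost without lung replicate 1 (edgeR adjusted p = 0.0512), lung replicate 2 (0.0927), cell line replicate 2 (0.144) or cell line replicate 3 (0.153). It was also lost in limma-voom (adjusted p = 0.0571). Vkorc1l1, a relative of Vkorc1, was at 49.2 ± 9.71 and 89.0 ± 3.49 CPM (edgeR adjusted p = 0.0196). This call was lost without lung replicate 1 (edgeR adjusted p = 0.0501), cell line replicate 2 (0.0514) or cell line replicate 3 (0.0661). The Vkorc1l1 call was also lost with library size alone (edgeR adjusted p = 0.0749) and with 10 or more counts in all 6 samples (0.0531). Of 9 tested genes for other proteins of this kind, 6 were higher and 1 lower (median 7.22, or 6.28 with the 2 genes at 0 counts in the cell line put at their lower bound). With 10 or more counts in all 6 samples, 4 of them were left, of which 1 was higher and 1 lower (median 0.35). Mgp, an inhibitor of calcification, was at 1911 ± 1070 and 0.322 ± 0.223 CPM, while Prrg4 was the one that fell, to 2.01 ± 0.667 from 12.4 ± 3.15 CPM.

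Of 8 genes tied to TAM feedback on interferon signalling and to receptor shedding, 4 were higher and 0 lower in lung (median 1.22). Ifnar2, a chain of the type I interferon receptor, was at 82.0 ± 5.84 and 24.6 ± 8.38 CPM. Of the other TAM ligands tested, Tulp1 rose and Lgals3 fell. Tulp1, at 1.13 ± 0.362 CPM in lung, had 0 counts in every cell line sample. Its lung level was at least 21.7-fold higher than 3 counts over that group. Tulp1 thus passed the filter on low counts through the lung samples alone. Lgals3, a lectin also named as a MERTK ligand, was at 279 ± 130 and 756 ± 346 CPM (edgeR adjusted p = 0.0281). Its call was lost without lung replicate 1 (0.0985), lung replicate 3 (0.0805) or cell line replicate 1 (0.0770) and with library size alone (edgeR adjusted p = 0.0536). With 10 or more counts in all 6 samples, which takes out Tulp1, Lgals3 did not pass either (edgeR adjusted p = 0.0688).

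The pattern of each member over the 6 samples was set beside that of 11021 genes, by Pearson correlation of log2(CPM + 1). Since the samples form a pair of groups, such values are given as a description only. The genes most like each member were Tmem119, Akr1c14 and Tspan11 for Gas6 (0.9999 for the first), Col16a1, Plcb1 and Kcnj2 for Pros1 (0.9990) and Adamts9, Nfia and Tbc1d2b for Hgf (0.9995). For the receptors they were Ints13, Afg3l2 and Nat10 for Axl (0.9999), C77080, Abcf3 and Cox15 for Tyro3 (0.9981), Kat6a, Tbc1d8b and Pdcd6ip for Met (0.9989) and, of those reported here, Sike1 for Mertk (0.9978). The pattern of Gas6 was shared widely, with 1153 genes at 0.98 or more, and that of Mertk by 35.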

How the data were processed

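The values are estimated counts for single transcripts, as deposited by the authors. The submitters' processing notes name Salmon 1.4.0, the build GRCm39, FastQC 0.11.9 and DESeq2 1.32.0, with roles, annotation and filters not given in the sources used here. Per the labels' protocols, lungs were digested with collagenase, RNA was cleaned on columns and libraries came from a stranded mRNA kit, with a Nugen amplification also mentioned, and the same text stands on the cell line samples. Of 76776 transcripts, 76521 (99.67%) matched GENCODE M21, which is on another build and gave names, lengths and sequences only. The other 255, with 0.107% to 0.416% of counts, were left out.

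Gene sums were rounded and tested with the quasi-likelihood test of edgeR 4.0.16 (R 4.3.3; robust, TMM, filterByExpr by group), adjusted by Benjamini-Hochberg over 15212 genes at 0.05. A count of 0 allows 3 counts, 0.120 to 0.173 CPM on the scaled libraries. Shares were compared by exact permutation tests in scipy 1.17.1. Alternatives were scaling by library size alone or by DESeq2 size factors, no filter, 10 or more counts in all 6 samples, DESeq2 1.42.0, limma-voom (limma 3.58.1), the replicate number as a block, each sample left out, CPM for shares and, added after the data were seen, coding transcripts only and 2 samples left out. The test was tried on simulated data in which few genes changed, evenly in both directions and with the same dispersion for every gene. The data here differ in this, so that trial does not bear on the scaling or on the outlying samples.

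The members and lists were chosen with earlier results of these data known. Named genes were the members, the 2 highest called genes of each list and direction, Mst1 and Mst1r, the 3 genes most like each member (10 CPM or more in a group, no predicted models) and markers set beside a member; not all of these are reported here. St14, Hpn, Tmprss13, Hgfac, Plau and Plat were named outside that rule, after their values were seen.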

Additional observations from a re-analysis of the deposited data

How the results depend on the processing

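No member changed direction under any alternative. Axl, Tyro3, Gas6 and Pros1 kept their side of the threshold in all 15 and Hgf in the 14 that could test it, since 10 or more counts in all 6 samples left Hgf out. Tyro3 came closest to the threshold (edgeR, DESeq2 and limma adjusted p at most 0.0498). Met passed in 4, among them the DESeq2 test (-0.92, adjusted p = 0.0396), and its adjusted p ranged from 0.00139 to 0.187. Mertk passed in 7, among them the DESeq2 test (1.07, adjusted p = 0.0353), library size alone (1.31, edgeR adjusted p = 0.0404) and 10 or more counts in all 6 samples (1.26, edgeR adjusted p = 0.0484), and ranged from 4.08e-04 to 0.216. Replicate numbers did not pair the samples (correlations of deviations -0.04, 0.08 and -0.08), and the replicate block gave 4 members higher and 3 lower, with Met at -1.02 (edgeR adjusted p = 0.0318) and Mertk at 1.04 (0.0277), 4634 genes higher and 2526 lower, and 37 and 14 list genes. Library size alone shifted the median log2 fold change of all genes by 0.23 and gave 1728 genes lower. The filter at 10 counts, which tests fewer genes, gave 2555 higher and 1701 lower. Each of these 2 gave 7 list genes lower. In both, Ptpn11, Crk, Ano6, Vkorc1l1 and Lgals3 were still tested and no longer passed. At the filter of 10 counts their edgeR adjusted p was between 0.0531 and 0.0688. In both settings the log2 fold changes of these genes were smaller in size than in the main fit. For Crk the value was -0.93 in the main fit, -0.69 with library size alone and -0.74 at the filter of 10 counts. The cause was not tested. With lung replicate 2 and cell line replicate 1 left out, 5425 genes and 27 list genes were lower, and the cause was not tested. Leaving out 1 sample at a time gave 4249 to 5190 genes higher, 1820 to 3773 lower, 33 to 44 list genes higher, 8 to 14 lower, 3 to 4 members higher and 2 to 3 lower. The Mertk share differed by 5.35 points on coding transcripts only, since these leave out Mertk-202, and the log2 ratio of TAM ligands to receptors by 6.10 in CPM, where longer transcripts weigh more. Depth limits Hgf in the cell line most, at 5 to 8 counts.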
